A study of Homo sapiens with 12 samples.

Results

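The H/ACA box and Cajal body RNAs are short noncoding RNAs that guide the modification of other RNAs, and this report describes 133 of them in human lung cancer cells in which NGFR, the nerve growth factor receptor, was knocked down by siRNA. Rows of the deposited count table were taken when their gene name began with SNORA (small nucleolar RNA, H/ACA box) or SCARNA (small Cajal body RNA), when they lay on chromosomes 1 to 22 or X, and when their mean over the 12 libraries was at least 10 reads. Of the 64253 rows of the table, 469 had such a name and position, 134 of them reached the minimum and 133 remained after rows with identical counts were merged, 112 named SNORA and 21 named SCARNA. The rows were thus chosen by the measured level, the mean read count, but by neither the knockdown response nor the difference between the cell lines. Just inside the minimum lay SNORA11E, SCARNA4 and SNORA44 (RF00405), with means of 10.58, 10.92 and 12.5 reads, and just outside it lay SNORA11, SNORA71 (RF00056) and SNORA22 (SNORA22B), with 9.75, 8.83 and 8.58 reads. A further 152 named rows had no read in any library, and the 183 rows with some reads but under the minimum held 0.195% of the reads of all named rows.

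RNA was sequenced from 4 groups of 3 libraries. H460 cells with siNGFR were set against H460 cells with siCont, the control siRNA, and H1299 cells with siNGFR against H1299 cells with siCont. Both are established lines of non-small-cell lung cancer. H460 carries wild-type p53 and H1299 lacks p53, so the study could ask which effects of the knockdown depend on p53. All cells were grown in DMEM with serum, and the titles of the H1299 siNGFR samples carry an unexplained number 3 after the word knockdown. The H460 libraries are numbered 4 to 6 in the table and the H1299 libraries 1 to 3, and values below are given in that order.

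H/ACA RNAs fold into hairpins joined by a hinge box and end in a short ACA box close to the 3′ end. Each is bound by dyskerin (DKC1), NHP2, NOP10 and GAR1, and the particle converts chosen uridines of ribosomal RNA into pseudouridine. RNAs with an added localization signal collect in Cajal bodies and act on the spliceosomal small nuclear RNAs instead. Some of these scaRNAs carry box C/D, which directs ribose methylation, or both kinds of box. In human cells most are cut out of introns of host genes, many of which encode ribosomal or nucleolar proteins, and are not transcribed on their own. By box class, 123 of the 133 rows were H/ACA, 5 mixed, 4 box C/D and 1, SCARNA18, was not assigned.

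The sequences of the RNAs on which the results turn were read from GENCODE 29, GRCh38, and are written as DNA letters with the ACA box in capitals. The box was searched only on the RNA strand and only at the position that leaves 3 bases to the end. It stood there in 78 of 108 SNORA transcripts (72.2%), in 8 of 17 SCARNA transcripts (47.1%), in 44 of 55 other SNORA or SCARNA transcripts of the annotation (80.0%) and in 4 of 278 SNORD transcripts (1.44%), the box C/D class. SNORA transcripts had a median length of 134 bases (108 to 701) and SCARNA transcripts one of 166 bases (125 to 420). First come the 3 RNAs that passed the test for lower levels in H460 siNGFR cells. SNORA51 lies at chr20:2655067-2655198 on the plus strand in an intron of NOP56, SNORA62 at chr3:39411054-39411206 on the plus strand in RPSA and SNORA1 at chr11:93732004-93732133 on the minus strand in TAF1D.
SNORA51: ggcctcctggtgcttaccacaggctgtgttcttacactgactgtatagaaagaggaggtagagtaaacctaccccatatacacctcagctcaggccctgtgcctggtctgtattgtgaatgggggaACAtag
SNORA62: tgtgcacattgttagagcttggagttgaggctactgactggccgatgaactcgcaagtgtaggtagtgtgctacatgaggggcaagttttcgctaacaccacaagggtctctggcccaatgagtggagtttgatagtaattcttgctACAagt
SNORA1: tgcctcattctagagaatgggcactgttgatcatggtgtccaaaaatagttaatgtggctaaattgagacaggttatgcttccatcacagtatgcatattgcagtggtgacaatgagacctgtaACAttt

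Next come 2 pairs of near copies, shown because they bear on how reads were assigned and because the H1299 values turn on them. SNORA7A (chr3:12840312-12840450, minus strand, in RPL32) and SNORA7B (chr3:129397210-129397348, minus strand, in the pseudogene RPL32P3) were 98.6% identical. SNORA73A (chr1:28507366-28507571, plus strand) and SNORA73B (chr1:28508559-28508762, plus strand), both in RCC1, were 93.2% identical.
SNORA7A: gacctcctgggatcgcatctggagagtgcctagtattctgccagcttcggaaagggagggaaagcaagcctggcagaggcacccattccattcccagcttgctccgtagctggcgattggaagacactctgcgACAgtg
SNORA7B: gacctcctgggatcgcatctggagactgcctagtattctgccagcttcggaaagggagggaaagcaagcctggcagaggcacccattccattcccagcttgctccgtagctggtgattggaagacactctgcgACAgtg
SNORA73A: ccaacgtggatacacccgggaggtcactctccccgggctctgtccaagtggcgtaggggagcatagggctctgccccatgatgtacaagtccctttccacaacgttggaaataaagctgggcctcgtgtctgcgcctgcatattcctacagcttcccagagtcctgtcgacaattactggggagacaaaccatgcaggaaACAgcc
SNORA73B: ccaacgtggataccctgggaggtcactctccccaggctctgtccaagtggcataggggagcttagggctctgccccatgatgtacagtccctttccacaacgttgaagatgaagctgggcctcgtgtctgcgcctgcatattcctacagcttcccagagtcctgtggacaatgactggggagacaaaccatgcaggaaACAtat

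The last set holds RNAs whose level differed between the lines with siCont, namely SNORA66 (chr1:92840719-92840851, plus strand, in RPL5), SCARNA1 (chr1:27834401-27834566, plus strand, in PPP1R8) and SCARNA22 (chr4:1974636-1974760, plus strand, in NSD2).
SNORA66: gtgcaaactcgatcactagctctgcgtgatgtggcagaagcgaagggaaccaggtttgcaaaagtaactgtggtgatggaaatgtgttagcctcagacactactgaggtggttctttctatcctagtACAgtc
SCARNA1: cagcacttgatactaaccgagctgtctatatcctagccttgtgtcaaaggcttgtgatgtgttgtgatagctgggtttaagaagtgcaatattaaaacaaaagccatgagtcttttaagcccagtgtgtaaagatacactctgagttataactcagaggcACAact
SCARNA22: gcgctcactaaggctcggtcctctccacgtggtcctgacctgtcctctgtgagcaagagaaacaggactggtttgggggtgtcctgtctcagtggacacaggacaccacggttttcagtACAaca

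The libraries held 20364546, 27832622 and 26620448 reads assigned to genes in H460 siNGFR cells, against 19107878, 25120221 and 26625647 in H460 siCont cells. They held 33251429, 16672164 and 36116823 in H1299 siNGFR cells, against 22560867, 20598510 and 19571807 in H1299 siCont cells. NGFR itself was barely read, with 0, 3 and 1 reads in H460 siNGFR cells against 2, 3 and 1 in H460 siCont cells, and 1, 0 and 1 in H1299 siNGFR cells against 1, 6 and 1 in H1299 siCont cells. These counts are too low to check the knockdown, and no fold is given. The summed level of the epithelial markers KRT8, KRT18, KRT19 and EPCAM was 1010 to 1280 CPM (TMM-scaled read counts relative to the library size) in H460 siNGFR and 1010 to 1170 in H460 siCont libraries, and 502 to 555 in H1299 siNGFR and 435 to 482 in H1299 siCont libraries, and KRT8 and KRT18 were high in every library. EPCAM was at or near 0 throughout (at most 0.251 CPM), as was KRT19 in H1299 (at most 0.116 CPM). Leukocyte markers summed to at most 0.116 CPM and endothelial markers to at most 0.81 CPM, while fibroblast markers summed to 4.97 to 5.35 CPM in H460 siNGFR and 6.01 to 8.26 CPM in H460 siCont libraries, and to at most 1.10 CPM in H1299. Short genes (exons of less than 400 bases in sum) held 50.5 to 55.6% of the reads in H460 siNGFR and 43.1 to 48.2% in H460 siCont libraries, and 41.7 to 50.6% in H1299 siNGFR and 48.7 to 53.7% in H1299 siCont libraries. Library 3 of H1299 siNGFR and library 4 of H460 siNGFR stood apart from their replicates, and values that turn on them are also given without them.

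All 133 RNAs were read in all 12 libraries. Their mean ranged from 10.6 to 18400 reads with a median of 197, and 94 had a mean of at least 50 reads. For 5 rows the annotated gene of that identifier is not the small RNA itself but a longer or other transcript, SNORA67 (AC016876.2), SNORA76C (SNHG25), SNORA72 (AP003352.1), SCARNA10 (AC006064.5) and SCARNA15 (AC105339.2), which leaves 128 rows of small RNAs. A name in parentheses is the GENCODE name where it differs from the name in the table. Together the 133 RNAs took 0.646, 0.435 and 0.418% of the reads in H460 siNGFR cells, against 0.615, 0.632 and 0.652% in H460 siCont cells. They took 0.584, 0.553 and 0.545% in H1299 siNGFR cells, against 0.534, 0.663 and 0.452% in H1299 siCont cells. Thus 2 of the H460 siNGFR libraries lay below all of the H460 siCont libraries and library 4 did not, whereas in H1299 the groups overlapped.

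Reads were spread unevenly over the RNAs. Levels are given per kilobase of exon, which does not correct for recovery that differs with length or for reads shared with a host or near copy. The level of the 128 small RNAs in H460 had a median of 45.0 CPM per kilobase and reached 3890 for SNORA57. In H1299 it had a median of 60.8 and reached 4390 for SNORA73A. In H460, SNORA57 was followed by SNORA73A (3020), SNORA73B (2160), SNORA67 (1420), SNORA48 (1280) and SNORA10 (1080), all in CPM per kilobase and averaged over the 6 libraries. In H1299 the order differed between the groups. In siNGFR cells SNORA73A (2380) was followed by SNORA73B (2260), SNORA71B (1960), SNORA57 (1860), SNORA7A (1810) and SNORA67 (1070), whereas in siCont cells SNORA73A (6410) was followed by SNORA57 (3730), SNORA73B (1870), SNORA24 (1130), SNORA67 (1060) and SNORA48 (1040). SNORA71B and SNORA7A stood at 509 and 288 CPM per kilobase in siCont cells. The first place of SNORA73A in H1299 siNGFR cells rests on library 3. In libraries 1 and 2 of that group SNORA73B, SNORA71B and SNORA7A lay above it per kilobase, and their CPM are given below. SNORA73A and SNORA73B, also known as U17, differ from most of the class in that they serve the cleavage of the ribosomal RNA precursor. Neighbours in these orders did not separate in every library, since SNORA57 had 592, 522 and 364 CPM and SNORA73A 362, 633 and 772 CPM in H460 siNGFR cells, against 718, 598 and 685 CPM and 754, 503 and 712 CPM in H460 siCont cells. Of the scaRNAs, SCARNA2, a box C/D RNA that guides the methylation of U2 small nuclear RNA, was the most abundant in H460, at 631 CPM per kilobase against 267 in H1299.

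**Figure D1:**
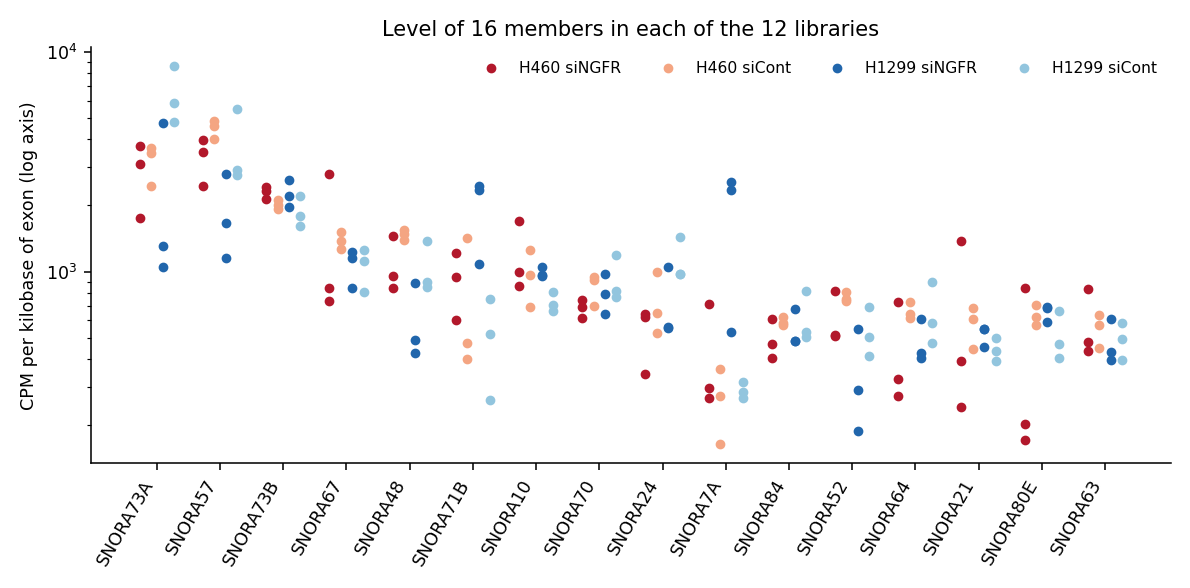
Level of the most abundant small RNAs in CPM per kilobase of exon (log axis), with a point for each of the 12 libraries, coloured by group. SNORA57, SNORA73A and SNORA73B have the highest means over the 6 libraries of each line, and SNORA7A and SNORA71B have their highest points in H1299 siNGFR cells.

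Replicates of these RNAs spread more than those of other genes. Over the 90 small RNAs with a mean of at least 50 reads, the median coefficient of variation among 3 replicates was 27.2% in H460 siNGFR, 18.9% in H460 siCont, 23.1% in H1299 siNGFR and 24.3% in H1299 siCont cells. Over the 13861 other genes with that mean it was 11.7%, 10.4%, 14.8% and 11.5% in the same groups. The columns used for RNA extraction are known to keep long RNAs better than short ones, and whether this bears on the spread was not tested. In RNA from whole cultures, fewer cells of a kind and less RNA per cell cannot be told apart.

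In H460 cells the knockdown moved few of these RNAs. Of the 129 that passed the filter on low counts, 1 was higher and 3 were lower in siNGFR than in siCont cells at an adjusted p under 0.05 (edgeR quasi-likelihood test, Benjamini-Hochberg over 19829 genes). Over all genes tested 1.82% were called higher and 2.50% lower, and the RNAs, at 0.775% higher and 2.33% lower, lay near or below that background. Their median log2 fold change was -0.04, beside 0.01 for all genes, and 26 of the 129 had an unadjusted p under 0.05 (20.2%, beside 19.2% of all genes). Those that did pass were 1 scaRNA that rose and 3 H/ACA RNAs that fell.

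SCARNA7, a box C/D RNA that guides methylation of U1 small nuclear RNA and lies in an intron of KPNA4, rose to 19.3, 14.5 and 12.9 CPM in siNGFR cells, against 11.5, 10.2 and 10.1 CPM in siCont cells. All 3 siNGFR libraries lay above all siCont libraries, and library 4 was the highest. The log2 fold change was 0.57 ± 0.15 (SE, adjusted p = 0.0469 by edgeR), a fold of 1.48. Its host KPNA4, an importin, had a log2 fold change of -0.47 ± 0.16 (adjusted p = 0.123). The call was lost without library 4 of siNGFR (log2 fold change 0.40, adjusted p = 0.0654), without library 5 of siNGFR (adjusted p = 0.124) and without library 4, 5 or 6 of siCont (adjusted p = 0.0713, 0.195 and 0.123). It was also lost with library size scaling (log2 fold change 0.25, adjusted p = 0.303) and in a single fit of the 12 libraries (adjusted p = 0.19).

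SNORA62, in the gene of the small subunit ribosomal protein RPSA, fell to 20.1, 16.3 and 18.5 CPM in siNGFR cells, against 22.6, 27.3 and 38.4 CPM in siCont cells. The groups did not overlap, although library 4 of siNGFR and library 4 of siCont lay close together. The log2 fold change was -0.68 ± 0.17 (adjusted p = 0.0465 by edgeR). SNORA62 lies within an exon of some RPSA transcript, as SNORA1 does within TAF1D, and RPSA itself had a log2 fold change of 0.12 ± 0.13 (adjusted p = 0.674). The call of SNORA62 was lost without library 6 of siCont (log2 fold change -0.42, adjusted p = 0.142), library 5 of siCont (0.109), library 5 of siNGFR (0.235) or library 6 of siNGFR (0.111). It was also lost with TMM over long genes (0.052), with at least 10 counts in every library (0.05) and in a single fit of the 12 libraries (0.273).

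The other 2 RNAs that fell were weakly expressed and were named after their values were seen, because their mean over the H460 libraries was under 50 reads. SNORA51, whose host NOP56 encodes a core protein of box C/D particles, had 10, 13 and 12 reads in siNGFR cells, against 29, 30 and 62 reads in siCont cells. In CPM these were 0.5, 0.543 and 0.518 in siNGFR cells, against 1.34, 1.06 and 2.12 in siCont cells. The siNGFR libraries agreed closely with each other, and the groups were well apart. The log2 fold change was -1.51 ± 0.35 (adjusted p = 0.0285 by edgeR), the largest fall of the 129, while NOP56 had a log2 fold change of 0.07 ± 0.11 (adjusted p = 0.793). The call was lost without library 6 of siCont (log2 fold change -1.15, adjusted p = 0.113), library 5 of siNGFR (0.13) or library 6 of siNGFR (0.0867).

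SNORA1, in the gene of the RNA polymerase I factor TAF1D, had 0.550, 0.627 and 0.734 CPM in siNGFR cells, against 1.20, 1.44 and 1.64 CPM in siCont cells, which rest on 11, 15 and 17 reads against 26, 41 and 48 reads. Again no siNGFR library reached a siCont library. The log2 fold change was -1.15 ± 0.29 (adjusted p = 0.045 by edgeR), and that of TAF1D was 0.01 ± 0.16 (adjusted p = 0.986). A near copy of SNORA1 elsewhere in the annotation is 94.7% identical to it. The call of SNORA1 was lost on leaving out any of the 6 libraries (adjusted p from 0.0537 to 0.191), with log2 fold changes from -1.26 to -1.02, and DESeq2 gave an adjusted p of 0.0695 and a single fit of the 12 libraries one of 0.394.

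**Figure D2:**
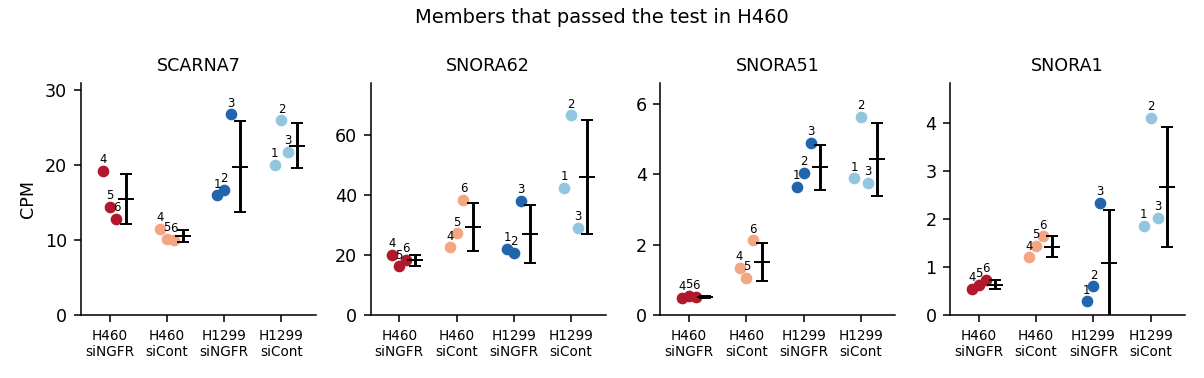
CPM of SCARNA7, SNORA62, SNORA51 and SNORA1, with a point and number for each library and a bar for mean ± SD (n = 3). Each panel shows, from left to right, H460 siNGFR, H460 siCont, H1299 siNGFR and H1299 siCont cells. For each of the 4 RNAs the 3 H460 siNGFR points lie on 1 side of the 3 H460 siCont points.

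Next in the order of p, without passing the threshold, came 2 scaRNAs on the higher side and 2 H/ACA RNAs on the lower side. SCARNA6, a mixed RNA in ATG16L1, had 36.6, 18.8 and 13.9 CPM in siNGFR cells, against 12, 16 and 12.2 CPM in siCont cells, so that the groups overlapped and library 4 was far above the rest (log2 fold change 0.79 ± 0.27, adjusted p = 0.121 by edgeR). Without library 4 of siNGFR the log2 fold change of SCARNA6 was 0.31 (adjusted p = 0.246), and without library 6 of siNGFR it was 1.06 and passed the threshold (adjusted p = 0.0324). SCARNA2 had 288, 269 and 329 CPM in siNGFR cells, against 252, 211 and 240 CPM in siCont cells (0.35 ± 0.13, adjusted p = 0.146). The groups of SCARNA2 did not overlap. SNORA56, which lies in DKC1, the gene of the pseudouridine synthase of these particles, had 1.75, 1.25 and 1.90 CPM in siNGFR cells, against 2.40, 3.34 and 3.11 CPM in siCont cells (-0.85 ± 0.23, adjusted p = 0.06). SNORA37 had 8.40, 6.44 and 4.92 CPM in siNGFR cells, against 9, 10.4 and 10.1 CPM in siCont cells (-0.57 ± 0.17, adjusted p = 0.0874). In all, the groups did not overlap for 6 RNAs on the higher side (4.65%) and 8 on the lower side (6.2%), beside 10.0% and 13.7% of all genes tested.

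Library 4 of siNGFR decided how many RNAs were called lower in H460. Without it 2 of 129 were higher and 26 lower, beside 4.33% higher and 3.28% lower over all genes tested. SNORA80E had 116 CPM in that library but 23.4 and 27.8 CPM in the other siNGFR libraries, against 96.6, 78.1 and 85.4 CPM in siCont cells. Its log2 fold change was -1.73 without library 4 (adjusted p = 4.63e-06 by edgeR) and -0.63 ± 0.43 with it (adjusted p = 0.476). SNORA30, SNORA65, SNORA6, SNORA27 and SNORA64 were also called lower, with log2 fold changes of -1.61, -1.32, -1.21, -1.14 and -1.12 without library 4. SNORA21, in RPL23, had 182 CPM in library 4, 51.7 and 32.1 CPM in the other siNGFR libraries, and 80.0, 89.8 and 58.5 CPM in siCont cells, and its log2 fold change was -0.83 without that library and 0.23 with it. The count of calls also depended on the others, being 0 higher and 0 lower without library 5 of siNGFR and also without library 6 of siCont, 2 and 0 without library 6 of siNGFR, 0 and 4 without library 4 of siCont, and 1 and 1 without library 5 of siCont. In these fits 92 to 262 of all genes were called higher and 111 to 329 lower, of 20126 to 20332 tested.

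SNORD and RNU rows give the scale of these movements in H460. Of 163 SNORD RNAs tested edgeR called none, 25 had an unadjusted p under 0.05, DESeq2 called 3 higher and 0 lower, and their median log2 fold change was -0.13. Of 111 spliceosomal small nuclear RNA rows (RNU), 0 were higher and 37 lower, with a median of -0.86. RNU rows took 0.729 to 0.947% of the reads in siNGFR libraries and 1.68 to 2.64% in siCont libraries. The part of this shift in the values of the H/ACA and Cajal body RNAs was not tested.

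**Figure D3:**
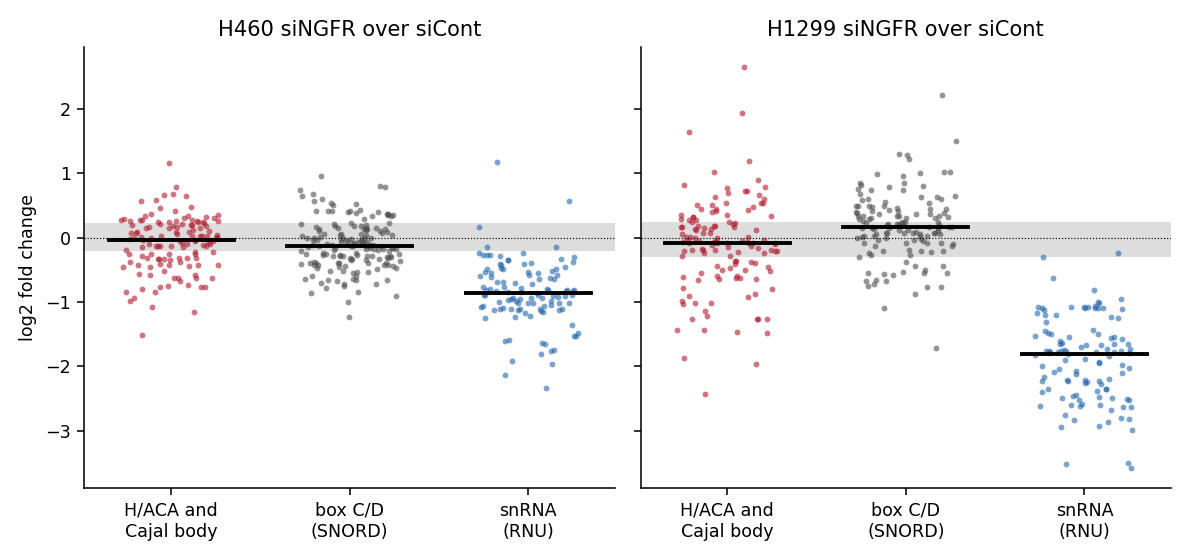
Log2 fold change of siNGFR over siCont for the H/ACA and Cajal body RNAs, SNORD and RNU rows in H460 and in H1299, a point for each row tested, a black line for the median and a grey band for the interquartile range of all genes tested. The RNAs centre on -0.04 in H460 and -0.08 in H1299, while RNU rows centre on -0.86 and -1.80.

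In H1299 cells the values spread more widely, with log2 fold changes from -2.42 to 2.64, beside -1.51 to 1.16 in H460. None of the 131 RNAs tested passed the threshold in either direction with edgeR, 38 had an unadjusted p under 0.05 (29%, beside 18.0% of all genes), and DESeq2 called 8 higher (6.11%) and 1 lower (0.763%), beside 0.428% and 0.502% of all genes. Over all 18921 genes tested edgeR called 0.0106% higher and 0.0106% lower. The median log2 fold change was -0.08, beside 0.00 for all genes, 0.17 for SNORD and -1.80 for RNU rows. RNU rows took 1.19 to 2.76% of the reads in siNGFR libraries and 3.28 to 6.62% in siCont libraries. The groups did not overlap for 21 RNAs on the higher side (16%) and 6 on the lower side (4.58%), beside 10.7% and 10.1% of all genes tested.

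The near-identical pair SNORA7A and SNORA7B both had higher means in siNGFR cells without passing the test. SNORA7A, in the ribosomal protein gene RPL32, had 326, 356 and 73.7 CPM in siNGFR cells, against 39.4, 43.8 and 37.0 CPM in siCont cells. Libraries 1 and 2 were far above library 3, which was itself above all siCont libraries. The log2 fold change was 2.64 ± 0.50, a fold of 6.25 (adjusted p = 0.214 by edgeR), and without library 3 it was 3.08 (adjusted p = 9.06e-08). RPL32 had a log2 fold change of 0.45 ± 0.17 (adjusted p = 0.26).

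SNORA7B had 84.6, 85.1 and 29.9 CPM in siNGFR cells, against 20.4, 24.2 and 19.1 CPM in siCont cells. The order of the libraries was that of SNORA7A, and reads of the 2 copies may have been assigned to either. Its log2 fold change was 1.64 ± 0.35 (adjusted p = 0.26 by edgeR) and 1.99 without library 3 (adjusted p = 1.39e-06). In H460, SNORA7A had 98.8, 37.1 and 41.3 CPM in siNGFR cells, against 22.8, 50.4 and 38 CPM in siCont cells, and the groups overlapped.

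SNORA71B, in the noncoding host SNHG17, had 335, 320 and 147 CPM in siNGFR cells, against 70.5, 35.4 and 102 CPM in siCont cells (log2 fold change 1.94 ± 0.41, adjusted p = 0.26 by edgeR). The other RNAs of SNHG17 did not share this size, since SNORA71C had a log2 fold change of 0.73, SNORA71D one of -0.45 and SNORA71A one of -1.13, and SNHG17 itself 0.19 ± 0.16. Among RNAs with a mean of at least 50 reads, the smallest p on the higher side belonged to SNORA45A (SNORA3A), in RPL27A, with 38.4, 27.6 and 26.0 CPM in siNGFR cells, against 12.9, 15.6 and 11.7 CPM in siCont cells (1.19 ± 0.18, adjusted p = 0.202). Here all 3 siNGFR libraries were alike and apart from siCont. SNORA71 had a log2 fold change of 0.77 ± 0.12 (adjusted p = 0.206) and SNORA80A, in URB1, one of 0.79 ± 0.14 (adjusted p = 0.207), also without overlap. SCARNA6 had 32.3, 33.2 and 19.3 CPM in siNGFR cells, against 13.5, 12.7 and 15.7 CPM in siCont cells (1.01 ± 0.21, adjusted p = 0.245).

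On the lower side stood SNORA73A, which had the highest mean level per kilobase over the H1299 libraries. It had 217, 270 and 982 CPM in siNGFR cells, against 987, 1770 and 1200 CPM in siCont cells, so that library 3 nearly reached the siCont range. The log2 fold change was -1.44 ± 0.54 (adjusted p = 0.26 by edgeR) and -2.45 without library 3 (adjusted p = 2.36e-05). SNORA73B, from the same host and 93.2% identical, had 450, 533 and 403 CPM in siNGFR cells, against 364, 450 and 330 CPM in siCont cells, with a log2 fold change of 0.27 ± 0.18 (adjusted p = 0.429). The 2 copies thus had opposite signs, and RCC1, the exchange factor of the GTPase RAN, had -0.10 ± 0.12.

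Among RNAs with a mean of at least 50 reads, the 3 smallest p on the lower side, none past the threshold, belonged to SNORA38B, SNORA70 (RF00156) and SNORA66. SNORA38B, in NOL11, had 1.26, 0.929 and 2.82 CPM in siNGFR cells, against 4.75, 6.80 and 2.71 CPM in siCont cells, which overlapped (log2 fold change -1.48 ± 0.44, adjusted p = 0.26 by edgeR). SNORA70 (RF00156) had 2.83, 3.33 and 5.54 CPM in siNGFR cells, against 8.72, 13.6 and 4.85 CPM in siCont cells (-1.22 ± 0.38). SNORA66, in the ribosomal protein gene RPL5, had 5.48, 7.10 and 13.5 CPM in siNGFR cells, against 14.6, 20.9 and 14.1 CPM in siCont cells (-0.93 ± 0.32). In each of the 3, library 3 was the highest of the siNGFR group. Without it all 3 were called lower, SNORA38B with a log2 fold change of -2.08 (adjusted p = 0.00128), SNORA70 (RF00156) with -1.58 (adjusted p = 0.0044) and SNORA66 with -1.42 (adjusted p = 0.000264).

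Library 3 of siNGFR decided the calls in H1299. Without it, 22 of the 131 RNAs were higher and 39 lower, beside 11.3% higher and 16.6% lower over all genes tested, and leaving out any other library left 0 in both directions. On the higher side SNORA7A, SNORA71B, SNORA7B, SNORA45A (SNORA3A) and SCARNA6 had log2 fold changes of 3.08, 2.24, 1.99, 1.30 and 1.23. On the lower side SNORA38, SNORA68 (SNORA68B), SNORA44 (RF00405) and SNORA1 had log2 fold changes of -3.87, -3.61, -3.61 and -2.70, and the abundant SNORA73A, SNORA57 and SNORA48 had -2.45, -1.41 and -1.19. SCARNA2 was lower, with a log2 fold change of -1.09, and SCARNA7 too, with -0.47. These values compare 2 siNGFR libraries with 3 siCont libraries.

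**Figure D4:**
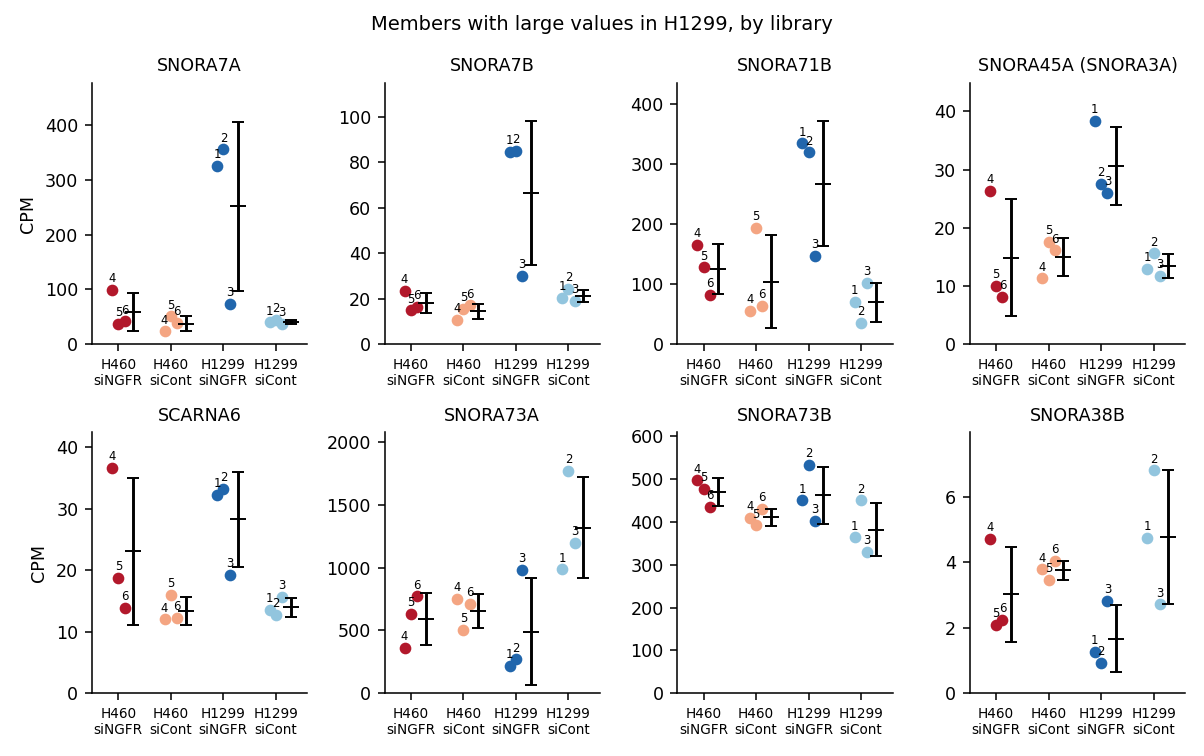
CPM of SNORA7A, SNORA7B, SNORA71B, SNORA45A (SNORA3A), SCARNA6, SNORA73A, SNORA73B and SNORA38B, with a point and number for each library and a bar for mean ± SD (n = 3). Each panel shows, from left to right, H460 siNGFR, H460 siCont, H1299 siNGFR and H1299 siCont cells. Library 3 of H1299 siNGFR lies apart from libraries 1 and 2 for SNORA7A (73.7 CPM) and SNORA73A (982 CPM).

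A contrast over all 12 libraries, in which the H1299 response was subtracted from the H460 response, asked whether the lines responded differently. None of the 133 RNAs passed the threshold with edgeR, 17 had an unadjusted p under 0.05 (12.8%, beside 17.0% of all genes), and DESeq2 called 0 higher and 1 lower (0.752%), beside 0.899% and 1.23% of all genes. Over all 21574 genes edgeR called 0.158% higher and 0.269% lower. At a mean of at least 50 reads, the smallest p on the lower side were those of SNORA51 (difference of log2 fold changes -1.45 ± 0.40, adjusted p = 0.116), SNORA7B (-1.31 ± 0.44, adjusted p = 0.165) and SNORA7A (-1.98 ± 0.66, adjusted p = 0.165). SNORA51 had 3.64, 4.04 and 4.89 CPM in H1299 siNGFR cells, against 3.88, 5.62 and 3.75 CPM in H1299 siCont cells, which overlapped, unlike the groups in H460.

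On the higher side were SCARNA7 (0.73 ± 0.27, adjusted p = 0.202 by edgeR), SNORA72 (AP003352.1) (0.99 ± 0.41, adjusted p = 0.236) and SNORA70 (RF00156) (1.10 ± 0.49, adjusted p = 0.273). SCARNA7 had 16, 16.7 and 26.8 CPM in H1299 siNGFR cells, against 20.1, 26.0 and 21.8 CPM in H1299 siCont cells, with overlap. Thus SCARNA7 passed the test in H460 and not in H1299, but the difference itself did not pass. Without library 3 of H1299 siNGFR 14 RNAs were called higher and 9 lower, beside 9.32% and 8.65% of all genes, among them SNORA73A (2.21), SCARNA2 (1.34) and SCARNA7 (0.94) on the higher side and SNORA7A (-2.50), SNORA7B (-1.75) and SNORA51 (-1.40) on the lower side. Without library 4 of H460 siNGFR 0 were higher and 4 lower (3.01%), beside 0.102% higher and 0.165% lower of all genes.

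The comparison of the lines gave more calls than either knockdown. Between H460 siCont and H1299 siCont cells, 23 of 131 RNAs tested were higher in H460 (17.6%) and 47 lower (35.9%), beside 31.9% higher and 31.3% lower of all 20097 genes tested. The median log2 fold change of the RNAs was -0.21, beside -0.02 for all genes, -0.12 for SNORD and -1.44 for RNU rows. When libraries were scaled by their size alone, the median of all genes became 0.25 and the split was 40 higher and 35 lower, beside 8052 and 4498 of all 20097 genes. The median of the RNAs was then 0.05, so its sign depends on the scaling. It lay below the median of all genes under both scalings. These siCont libraries are also the controls of the comparisons above, and cell line and any day of transfection or library making cannot be told apart. For 4 of the 131 the mean in the siCont cells of a line was under 10 reads, so that the level in the other line carried them past the minimum, and without them 22 of 127 were higher (17.3%) and 45 lower (35.4%). The 12 RNAs with the largest differences at a mean of at least 50 reads are those in the plot of differences between the lines. They were chosen by these same differences, and were called in all 144 of the 144 values from 12 alternative settings. That mean was taken over both siCont groups. The level in H1299 carried SNORA72, SNORA58 and SNORA51 (means of 65.8, 58.5 and 63.3 reads) past that minimum.

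Among the RNAs lower in H460 siCont cells, SCARNA10 had the smallest p of those with a mean of at least 50 reads. It is a mixed scaRNA that acts on U5 small nuclear RNA and lies in an intron of the condensin gene NCAPD2, and it had 5.86, 7.89 and 7.68 CPM in H460 siCont cells, against 28.7, 27.2 and 23.9 CPM in H1299 siCont cells, far apart (log2 fold change -1.90 ± 0.14, adjusted p = 1.88e-08 by edgeR). A row that overlaps it, SCARNA10 (AC006064.5), had -1.80 and is not independent of it. The siNGFR libraries showed a like gap, with 7.40, 6.94 and 7 CPM in H460 siNGFR and 33.2, 36.4 and 27.8 CPM in H1299 siNGFR cells. NCAPD2 was also lower in H460 (-1.16 ± 0.11, adjusted p = 4.28e-07).

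SNORA72, in RPL30, had 0.831, 0.915 and 1.43 CPM in H460 siCont cells, against 4.45, 7.18 and 4.22 CPM in H1299 siCont cells (-2.30 ± 0.28, adjusted p = 4.46e-06 by edgeR). SNORA66 had 4.57, 4.15 and 5.91 CPM in H460 siCont cells, against 14.6, 20.9 and 14.1 CPM in H1299 siCont cells (-1.77 ± 0.18, adjusted p = 7.99e-07). In both cases the host was lower as well, RPL30 by a log2 fold change of -0.93 and RPL5 by one of -0.61. SNORA58 (-1.58) and SNORA51 (-1.55) were lower in H460 too, while their hosts did not pass the test, MRPL3 with -0.11 ± 0.11 and NOP56 with 0.09 ± 0.12.

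SCARNA22, an orphan guide in an intron of the histone methyltransferase gene NSD2, had 1.89, 3.45 and 3.79 CPM in H460 siCont cells, against 8.12, 9.99 and 6.41 CPM in H1299 siCont cells (-1.41 ± 0.23, adjusted p = 9.18e-05 by edgeR), and NSD2 had -1.40 ± 0.11. SCARNA1 (-1.34), SCARNA7 (-1.10) and SCARNA12 (-0.66) were also lower in H460. SCARNA2 was higher, with 252, 211 and 240 CPM in H460 siCont cells, against 114, 156 and 125 CPM in H1299 siCont cells (0.82 ± 0.14, adjusted p = 9.53e-05). Of the remaining scaRNAs with a mean of at least 50 reads, SCARNA5, SCARNA6, SCARNA13, SCARNA16, SCARNA18 and SCARNA20 did not pass the test, with log2 fold changes between -0.21 and 0.23.

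Higher in H460 siCont cells were SNORA63 (RF00092) in EIF4A2, SNORA71C, SNORA79 (SNORA79B) and 3 RNAs of the SNORA74 family. SNORA63 (RF00092) in EIF4A2 had 5.95, 8.13 and 8.57 CPM in H460 siCont cells, against 2.89, 3.19 and 1.67 CPM in H1299 siCont cells (1.53 ± 0.22, adjusted p = 2.97e-05 by edgeR). The groups were apart, although the host EIF4A2 had -0.13 ± 0.15. SNORA71C (1.30 ± 0.26) came with a host that differed more, SNHG17, at 44.8, 39.2 and 34.8 CPM in H460 siCont cells, against 7.60, 6.91 and 8.66 CPM in H1299 siCont cells (2.35 ± 0.13). SNORA79 (SNORA79B) had 1.16 ± 0.16 and its host CCNB1IP1 1.01 ± 0.13. SNORA74B, SNORA74 (SNORA74C-2) and SNORA74 (SNORA74D) had 1.04, 1.01 and 0.89.

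**Figure D5:**
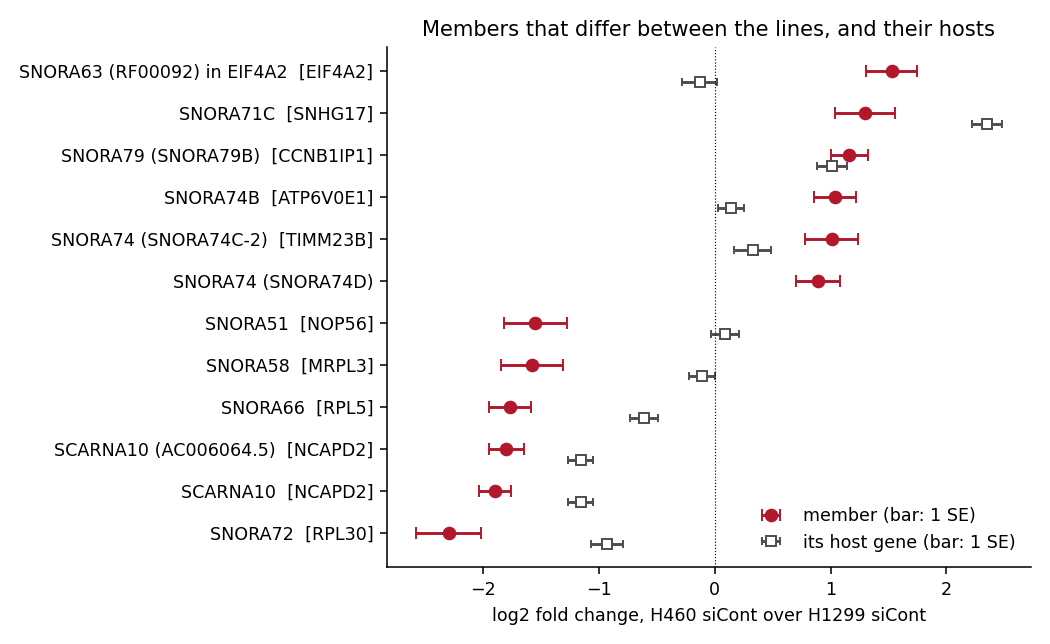
Log2 fold change of H460 siCont over H1299 siCont for the 12 named RNAs (points, bars ±1 SE) and their host genes (white squares). SCARNA10 at -1.90 and SNORA72 at -2.30 have hosts on the same side, while SNORA58, SNORA51 and SNORA63 (RF00092) in EIF4A2 have hosts near 0.

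Host genes could be assigned to 121 of the 133 RNAs by position in GENCODE 29, and the 93 hosts included protein-coding genes for 97 RNAs. Of these RNAs 43 lay within an exon of some transcript of the host and 72 overlapped no exon of it, so that reads of all but the 72 could be counted for both. In H460, of 91 hosts tested, EPB41L4A-AS1 rose (0.59) and RANBP1 (-0.85) and MIB1 (-0.53) fell with siNGFR. Of all genes tested there, 1.82% were called higher and 2.50% lower. None of the hosts passed the edgeR test in H1299, where 15 had an unadjusted p under 0.05 and DESeq2 called none. None passed in the difference between the responses, where 16 had such a p and DESeq2 called 0 higher and 1 lower. Such a p was found for 18.0% of all genes in H1299 and 17.0% in the difference. DESeq2 called 0.428% of all genes higher and 0.502% lower in H1299, and 0.899% and 1.23% in the difference. Between the siCont cells of the lines 31 hosts were higher and 18 lower in H460, beside 31.9% higher and 31.3% lower of all genes.

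Across RNAs, the log2 fold change of RNA and host between the lines had a Pearson r of 0.64 and a Spearman rho of 0.58 (116 RNAs in 90 hosts, the same sign for 80). For the knockdown, r was 0.12 in H460 (114 RNAs) and 0.11 in H1299 (115 RNAs). These are descriptions over RNAs that share libraries and often hosts. Where an RNA overlaps an exon of its host, the same reads could enter both values. RNAs of the same host differed in level. Of 18 hosts with at least 2 RNAs, 4 in each line had RNAs more than 10-fold apart per kilobase. In EIF4A2, SNORA63 had 568 and SNORA81 9.20 CPM per kilobase in H460, a ratio of 61.7, and the ratio was 42.9 in H1299. In RPL23, SNORA21 and SNORA21 (SNORA21B) were 55.2-fold apart in H460 and 173-fold apart in H1299. SNORA21 (SNORA21B) stood at only 2.77 CPM per kilobase in H1299 and did not pass the filter on low counts there. Both lie within exons of some RPL23 transcript. Within TAF1D the ratio of SNORA8 to SNORA32 was 31.0 in H460 and 16.4 in H1299.

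Near copies set a limit on single rows. By sequence, 35 RNAs had a copy in the annotation that was at least 90% identical, and how reads that fit several copies were counted is not stated in the labels or the study's methods. The strand setting of the counting is not stated either, so reads of an antisense gene may be among those of the small RNA. Hosts were taken on the same strand as the RNA, so no strand setting would tell their reads apart.

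Genes of the proteins that build these particles were tested too, together with telomerase and its RNA. Of 24 genes in lists of core proteins, assembly factors, Cajal body proteins, 3′ end processing enzymes and telomerase, 1 was higher and 1 lower in H460 siNGFR cells. At 1 gene in each direction, the list did not lie below the shares of all genes tested, 1.82% higher and 2.50% lower. COIL, which encodes coilin, the scaffold of Cajal bodies, rose to 11.3, 12.1 and 14.2 CPM in siNGFR cells, against 8.17, 9.01 and 7.75 CPM in siCont cells (0.61 ± 0.13, adjusted p = 0.0227 by edgeR). GEMIN4, a member of the SMN complex, fell to 55.4, 61.3 and 60.9 CPM in siNGFR cells, against 94.4, 85.6 and 80.7 CPM in siCont cells (-0.54 ± 0.11, adjusted p = 0.0154). In both the groups were apart. The call of COIL held in 6 of 13 alternative settings and that of GEMIN4 in 9 of 13, with the same direction in each.

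The 4 core proteins did not pass the test in H460, with log2 fold changes of -0.11 ± 0.11 for DKC1, 0.00 ± 0.12 for NHP2, 0.22 ± 0.16 for NOP10 and -0.24 ± 0.17 for GAR1. In H1299 none of the 24 passed, 4 had an unadjusted p under 0.05, beside 18.0% of all genes, and DESeq2 called none. The H1299 values were 0.22 ± 0.12 for DKC1, -0.65 ± 0.24 for NHP2, -0.43 ± 0.27 for NOP10 and 0.38 ± 0.17 for GAR1. None of the 24 passed in the difference between the responses with edgeR, and 7 had an unadjusted p under 0.05, beside 17.0% of all genes. For that difference DESeq2 called 1 higher and 1 lower, beside 0.899% and 1.23% of all genes. Between the siCont cells of the lines 14 of the 24 were higher and 5 lower in H460, beside 31.9% higher and 31.3% lower of all genes. Among them were DKC1 (0.53 ± 0.11) on the higher and NHP2 (-0.42 ± 0.11) and COIL (-0.95 ± 0.12) on the lower side. TERC, the telomerase RNA, which carries an H/ACA domain, had 18.8, 16.4 and 16.3 CPM in H460 siCont cells, against 79.9, 83.1 and 74.4 CPM in H1299 siCont cells (-2.22 ± 0.11, adjusted p = 3.62e-10). TERT, its protein partner, had 9.74, 6.44 and 7.44 CPM in H460 siCont cells, against 1.38, 1.84 and 1.85 CPM in H1299 siCont cells (2.22 ± 0.21, adjusted p = 4.28e-07). The telomerase RNA and the mRNA of its protein partner thus differed between the lines in opposite directions.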

How the data were processed

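Total RNA was extracted on RNeasy columns, depleted of ribosomal RNA with RiboMinus and prepared for Ion sequencing (Ion Total RNA-Seq Kit v2). The authors deposited a table of raw read counts per gene and library, with an exon length per gene in a column of its own (other unit, in bases). STAR, Bowtie2 and hg38 are named, without versions, in the submitters' processing notes. No source used here gives the counting program, its strand setting or its annotation. The authors also deposited tables of their own EBSeq comparison for each line (posterior probabilities and fold changes), which were not used, and 24 further columns of values per sample (RPKM and repeats of the counts) were not used. The groups came from the labels, and the H460 columns carry numbers found in no title, so they were placed by group. The labels call replicates biological, and the p-values measure the spread between those samples.

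Rows with identical counts were merged, leaving 36910 rows with counts. In R 4.3.3, genes were kept by filterByExpr and tested with the two-sided quasi-likelihood test of edgeR 4.0.16 (limma 3.58.1) after TMM scaling, with Benjamini-Hochberg adjustment over all genes tested and a threshold of 0.05. Each line was fitted alone, the siCont groups together, and the difference of the responses in a fit of 12 libraries. SE is the log2 fold change divided by the root of F. CPM use TMM factors over all 12 libraries. The test was checked on simulated data in which no library departed from its group as a whole. That check does not bear on calls that turn on a single library. Alternatives were DESeq2 1.42.0, library size scaling, TMM over genes of at least 400 bases, no filter, at least 10 counts in every library, a replicate block, a single fit and leaving out each library. Named RNAs had to average 50 counts or more over the libraries of a fit, and were the 6 largest changes per direction past the threshold, or the smallest p up to 3, and in addition the 6 highest levels per line, the scaRNAs and the hosts. The RNAs and lists were chosen with earlier results of these data known. Python 3.11.15, pandas 2.3.3, scipy 1.17.1 and matplotlib 3.10.9 were used. No 2 libraries of a group agreed within sampling noise (chi-square per degree of freedom 19.3 to 182).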

Additional observations from a re-analysis of the deposited data

How the results depend on the processing

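In H460, at 1 higher and 3 lower, higher calls numbered 0 with library size as the sole scaling, 4 with no filter, 2 with at least 10 counts in every library and 0 in a single fit of the 12 libraries, and 0 to 2 on leaving out a library. Over all genes these settings gave, in order, 155 of 19829, 760 of 36268, 373 of 17347 and 195 of 21574 higher. Leaving out a library gave 92 to 882 higher. Lower calls numbered 35 under library size scaling (27.1%, median of all genes -0.32), 19 with no filter (14.3%) and 1 in a single fit, and 0 to 26 on leaving out a library. All genes gave 4209 of 19829, 831 of 36268 and 266 of 21574 lower, and 111 to 668 on leaving out a library. In H1299, at 0 and 0, higher calls numbered 8 with DESeq2, 2 with library size scaling, 8 with no filter, 2 in a single fit and 0 to 22 on leaving out a library, and lower calls 1 with DESeq2 and 0 to 39 on leaving out a library. Among all genes the higher calls were 81 of 18921, 13 of 18921, 87 of 36060, 64 of 21574 and 0 to 2199. The lower calls among them were 95 of 18921 and 0 to 3220. For the difference of the responses, lower calls numbered 1 with DESeq2, 14 with library size scaling (median of all genes -0.50), 3 with no filter and 0 to 9 on leaving out a library, and higher calls 0 to 14. Here all genes gave 266 of 21574, 2879 of 21574, 237 of 36910 and 8 to 1903 lower. Their higher calls on leaving out a library were 4 to 2050. Between the lines, at 23 and 47, higher calls numbered 40 with library size scaling, 16 in a single fit and 14 to 29 on leaving out a library, and lower calls 34 in a single fit and 35 to 53 on leaving out a library. For all genes the higher calls were 8052 of 20097, 6343 of 21574 and 5890 to 6290. The lower calls of all genes were 6136 of 21574 and 5676 to 6291. With the replicate number as a block, H460 had 0 higher and 2 lower calls, beside 261 and 297 of 19829 genes. H1299 had 0 and 0 with that block, beside 0 and 0 of 18921 genes. As deviations from their group means, same-numbered libraries correlated at 0.00, 0.08 and -0.01 in H460 and at 0.34, -0.22 and 0.12 in H1299. Libraries of different number correlated at -0.08 to 0.06 in H460 and at -0.41 to 0.29 in H1299. Deviations from a mean of so few libraries are tied to each other, so these values cannot decide whether the numbers pair the samples. Of the 52 values of the 4 RNAs called in H460 under the alternatives, 25 passed the threshold and 27 did not (block: SCARNA7 0.0623, SNORA62 0.0677, SNORA1 0.0666 as adjusted p). All 144 values of the 12 RNAs chosen for the largest differences between the lines passed it. Of 238 values of named RNAs that were not called, 34 passed it. None changed sign. The causes were not tested. With a mean of at least 50 reads, 94 RNAs met the rule.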
